A study of Mus musculus with 11 samples.

Results

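The regulators of transcription followed here act in meiotic and postmeiotic germ cells and are Mybl1, Crem, Fhl5, Tcfl5, Sox30, Taf7l, Tbpl1, Gtf2a1l and Brdt. They are 9 of the 23074 genes in the count table and were picked by symbol, without use of their values here. Testis RNA was sequenced from 5 wild type (WT) mice, replicates 1 to 5, and 6 Rfx2-/- mice, replicates 6 to 11. All 11 mice were at postnatal day 21 (P21), were of a mixed C57BL/6, 129/Sv and FVB/N background, no treatment is named in the labels, and whole decapsulated testes were used. RFX2 is a transcription factor of the RFX family that is needed for the development of spermatids, and the question addressed was how the transcripts of the other regulators of this stage stand when it is missing. The Rfx2 allele lacks exon 7 and was made with a Cre recombinase driven by the ACTB promoter, so the gene is deleted in every cell type of the mouse and not in germ cells alone.

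In the mouse testis, spermatocytes of the pachytene stage switch on a large set of genes under MYBL1 (also called A-MYB), and after meiosis the round spermatids use CREM and its coactivator FHL5 (also called ACT) to activate genes of the haploid stage. TCFL5 and SOX30 are further DNA-binding factors of these cells, and BRDT is a testis protein with bromodomains, which bind acetylated histones. TAF7L, TBPL1 (also called TRF2) and GTF2A1L (also called ALF) are germ cell relatives of the general transcription factors TAF7, TBP and TFIIA, which assemble at the promoters of most genes.

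Levels are given as CPM, read counts scaled to library size with TMM factors (trimmed mean of M values), and a log2 fold change is the Rfx2-/- level over the WT level. Between 22232097 and 29769483 reads were counted per mouse. A gene was called at an adjusted p of at most 0.01 in the quasi-likelihood test of edgeR, with p-values adjusted after Benjamini and Hochberg over all 15745 tested genes. The count of Rfx2 covers the whole gene and does not show the loss of exon 7, and it was 326 ± 118 CPM (SD, n = 5) in WT and 304 ± 14.6 CPM (SD, n = 6) in Rfx2-/- testis (edgeR, adjusted p = 0.714).

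The WT mice were not alike in the levels of germ cell stage markers. The summed level of 7 pachytene spermatocyte markers was 3256 CPM in WT replicate 3 and 3120 CPM in WT replicate 5, but 7550, 6456 and 6438 CPM in WT replicates 1, 2 and 4, and it lay between 6693 and 8916 CPM in the Rfx2-/- mice. None of the 7 markers was called by edgeR and all 7 had fitted values above 0. The summed level of 8 round spermatid markers ran from 5.66 to 279 CPM in WT (median 14.2) and from 26.2 to 487 CPM in Rfx2-/- mice (median 115), with WT replicate 1 and Rfx2-/- replicate 7 highest in their groups and none of the 8 called. All 8 had fitted values above 0. The 9 elongating spermatid markers spanned 3.08 to 621 CPM in WT and 19.0 to 741 CPM in Rfx2-/- testis. The 8 Sertoli cell markers spanned 2868 to 4481 CPM in WT and 2789 to 3291 CPM in Rfx2-/- testis, so that transcripts of this testis cell type were present in every mouse. All 8 Sertoli cell markers, all 6 spermatogonium markers, all 4 macrophage markers and all 4 endothelial cell markers had fitted values below 0, and none of them was called by edgeR. Over the other marker lists, for earlier germ cells and somatic cells, only the Leydig cell enzyme Hsd3b1 was called (log2 fold change -0.86, edgeR, adjusted p = 0.00126). Epididymis markers were highest in WT replicates 1 and 2, at 64.5 and 12.1 CPM, against at most 2.31 CPM in any other mouse. The part of these differences in the results was not tested, and the fitted values of the 9 regulators, their ratios to counterparts and the medians of gene lists are also given without WT replicates 3 and 5.

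**Figure D1:**
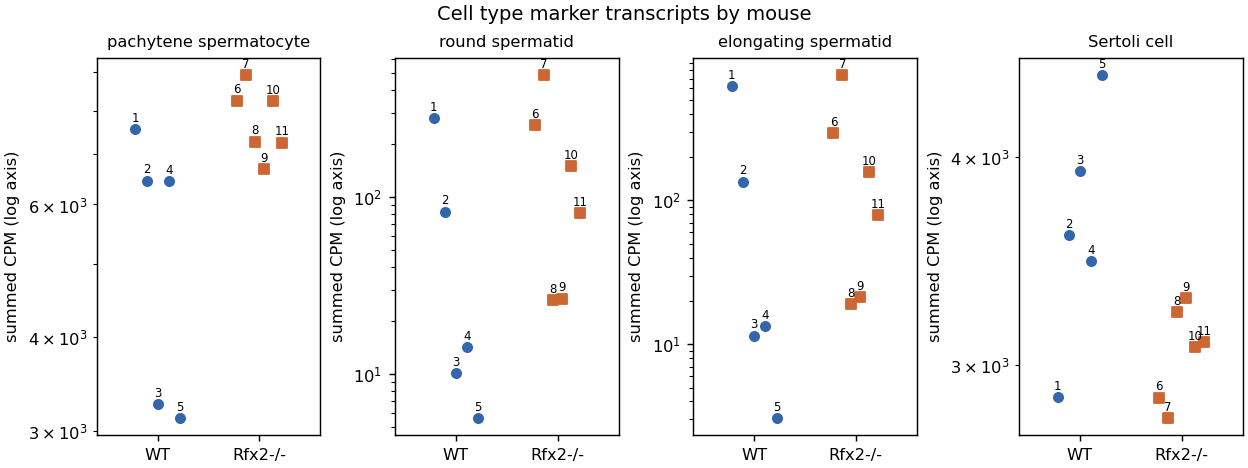
Summed CPM of 4 marker lists on log axes, 1 point per mouse with its replicate number, circles for WT (n = 5) and squares for Rfx2-/- (n = 6). WT replicates 3 and 5 lie at 3256 and 3120 CPM for the pachytene list, below the other 9 mice.

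None of the 9 regulators was called between genotypes in edgeR, where 2.67% of all tested genes were called. At an unadjusted p under 0.05, 4 were higher and 1 was lower in Rfx2-/- testis, against 18.1% of all tested genes higher and 23.7% lower. The Wald test of DESeq2 called 2 of them higher, Sox30 and Tbpl1, and none lower, while it called 7.28% of all tested genes higher and 5.79% lower. Limma voom called none of the 9, against 2.33% of all tested genes higher and 4.33% lower. The fitted values of 7 genes were above 0 and those of Taf7l and Gtf2a1l were below 0, with a median of 0.45 over the 9 genes and of -0.05 over all tested genes. Without WT replicates 3 and 5 the median of the 9 genes was 0.13. In whole testis RNA, fewer cells of a type and less RNA per cell cannot be told apart. Gtf2a1l was the only one of the 9 that edgeR called when WT replicates 3 and 5 were left out, and it then stood lower in Rfx2-/- testis. Both mice held the lowest WT levels of Gtf2a1l, so that call adds no separate support.

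**Figure D2:**
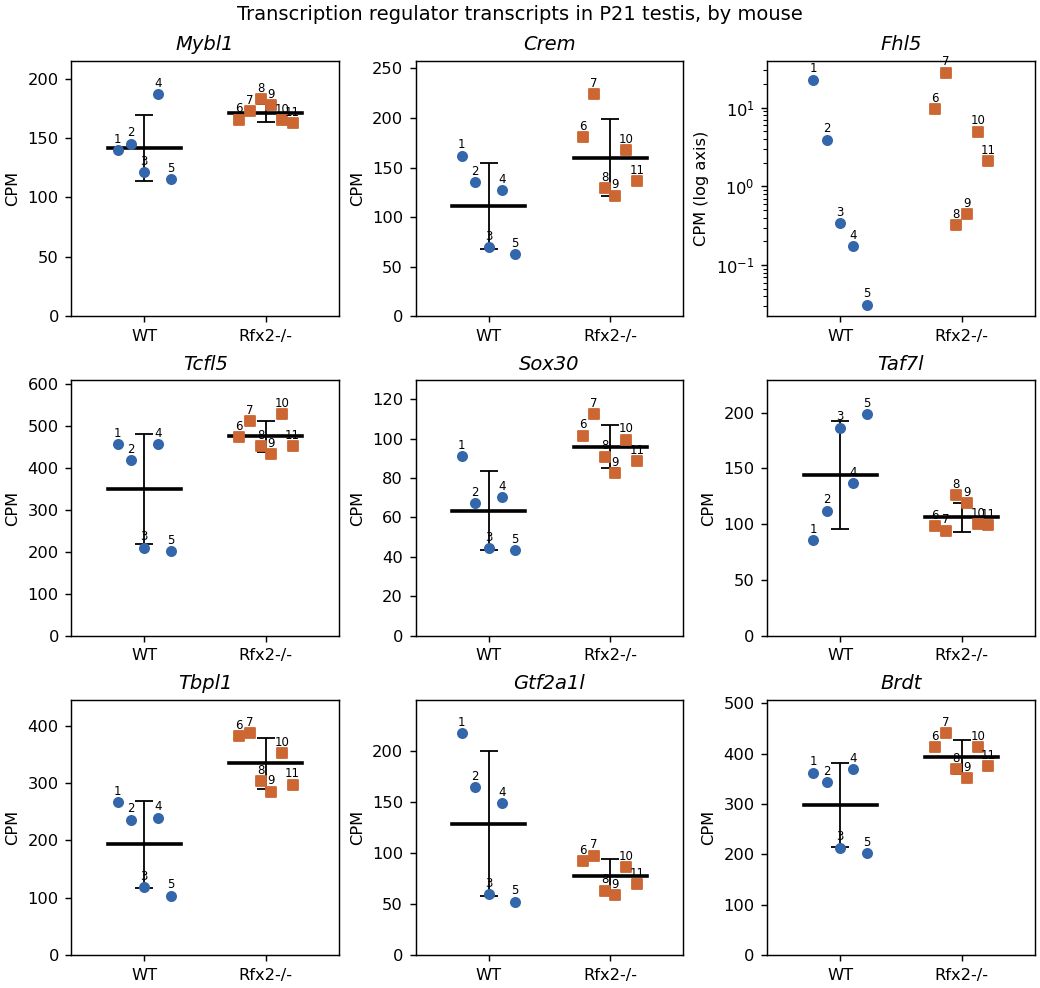
CPM of the 9 genes in each mouse, with replicate numbers, circles for WT (n = 5) and squares for Rfx2-/- (n = 6), and bars for mean ± SD (no bars for Fhl5, which has a log axis). For Tbpl1 every Rfx2-/- mouse lies above every WT mouse, while for Gtf2a1l the Rfx2-/- mice lie between 58.5 and 97.3 CPM and WT replicates 1, 2 and 4 lie above all of them.

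The upstream 250 bases of 3 of the genes are shown because the genes differ in direction: Gtf2a1l and Taf7l had fitted values below 0, and Sox30 had a fitted value above 0. Windows were taken from RefSeq on GRCm38.p6, for which 7 of the 9 genes had an entry and Mybl1 and Crem had none. Capitals mark GTTGCC, an RFX half-site, and GTTGCNNNGCAAC, an inverted pair of its shorter core GTTGC with a gap. The inverted pair was added to the search after the Gtf2a1l window had been seen.
Gtf2a1l, chr17:88668410-88668659, plus strand: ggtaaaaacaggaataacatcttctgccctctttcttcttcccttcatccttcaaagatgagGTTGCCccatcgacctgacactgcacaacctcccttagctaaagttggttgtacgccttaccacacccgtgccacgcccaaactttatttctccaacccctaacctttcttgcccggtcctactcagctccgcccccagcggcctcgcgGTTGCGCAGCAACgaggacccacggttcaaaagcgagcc
Taf7l, chrX:134476491-134476740, minus strand: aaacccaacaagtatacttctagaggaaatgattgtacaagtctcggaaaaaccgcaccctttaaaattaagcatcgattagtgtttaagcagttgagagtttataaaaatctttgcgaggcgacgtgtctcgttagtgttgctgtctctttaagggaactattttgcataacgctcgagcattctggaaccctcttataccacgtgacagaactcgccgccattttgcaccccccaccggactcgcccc
Sox30, chr11:45980060-45980309, plus strand: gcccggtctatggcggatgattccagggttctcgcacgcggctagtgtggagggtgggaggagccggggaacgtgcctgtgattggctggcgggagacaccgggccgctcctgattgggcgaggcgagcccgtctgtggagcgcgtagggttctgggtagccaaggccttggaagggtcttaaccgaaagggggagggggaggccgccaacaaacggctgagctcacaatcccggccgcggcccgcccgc
In Gtf2a1l the inverted pair runs from -39 to -27 relative to the RefSeq start, with the letters GTTGCGCAGCAAC, and GTTGCC runs from -188 to -183. Read on both strands, GTTGCC was present in 10.4% of 32851 windows of the same length and GTTGCNNNGCAAC in 0.207% of them. GTTGCNNNNGCAAC, with 1 more base in the gap, was in 0.14% of windows and was not found in that of Gtf2a1l. The CREM element TGACGTCA was in 1.55% and its half-site TGACG, which the full element contains, in 17.8%. None of these 5 motifs was found in the windows of the other 6 genes with an entry, and these matches describe letters and not bound sites. The study's supplement lists RFX2 targets and genes that differ in expression between the genotypes. There Sox30 is marked as an RFX2 target by ChIP-Seq, Gtf2a1l is listed without that mark, and the other 7 genes are not listed. The paper cites an earlier report of an RFX binding site at Gtf2a1l, which its own ChIP-Seq did not identify as a direct target. It also describes Gtf2a1l expression as reduced in Rfx2-/- mice, without naming an age there. In the P21 mice here the fitted value was 1.65-fold lower and was not called (edgeR, adjusted p = 0.132). Binding was not analysed here.

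Mybl1, Tcfl5 and Brdt act from the pachytene stage on. Mybl1 (ENSMUSG00000025912, chromosome 1 from 9667415 to 9700209, minus strand, of GRCm38) stood at 139.7, 145, 121, 187 and 116 CPM in WT replicates 1 to 5, and at 163 to 182 CPM in the Rfx2-/- mice, with a median of 169. All 6 Rfx2-/- mice lay within the WT range. The means were 142 ± 28.0 CPM (SD, n = 5) and 171 ± 7.94 CPM (SD, n = 6), a log2 fold change of 0.27 with a standard error of 0.11 (edgeR, adjusted p = 0.0924), and 0.13 without WT replicates 3 and 5 (edgeR, adjusted p = 0.410). Mybl1 varied less between WT mice than any other of the 9 genes, 1.61-fold from the lowest to the highest.

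Tcfl5 (ENSMUSG00000038932, chromosome 2 from 180621956 to 180642708, minus strand), a basic helix-loop-helix factor, was at 458, 418, 210.2, 458 and 202 CPM in WT replicates 1 to 5 and at 434 to 529.6 CPM in Rfx2-/- mice, with a median of 463. WT replicates 3 and 5 were thus far below all other mice, and WT replicates 1 and 4 overlapped the Rfx2-/- mice. The log2 fold change was 0.45 with a standard error of 0.23 (edgeR, adjusted p = 0.151), and 0.11 without WT replicates 3 and 5 (edgeR, adjusted p = 0.392). Exons of Col9a3 overlap those of Tcfl5 on the opposite strand, and reads on exons of more than 1 gene were left out by the authors.

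Brdt (ENSMUSG00000029279, chromosome 5 from 107331159 to 107387058, plus strand) was at 363, 343, 213, 369.9 and 202 CPM in WT replicates 1 to 5 and at 352 to 441 CPM in Rfx2-/- mice, with a median of 394. Of the 6 Rfx2-/- mice, 4 lay above the highest WT mouse, and WT replicates 3 and 5 lay below every Rfx2-/- mouse. The log2 fold change was 0.40 with a standard error of 0.17 (edgeR, adjusted p = 0.1002), and without WT replicates 3 and 5 it was 0.14 (edgeR, adjusted p = 0.242).

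Crem, Fhl5 and Sox30 serve the spermatid stage. Crem (ENSMUSG00000063889, chromosome 18 from 3266048 to 3337748, minus strand), whose activator isoforms appear in germ cells but are not separated by a count per gene, was at 162, 135, 69.8, 127 and 62.9 CPM in WT replicates 1 to 5. In Rfx2-/- mice it was at 122 to 224 CPM, with a median of 152. WT replicates 3 and 5 were below every Rfx2-/- mouse, and the other 3 WT mice fell within the Rfx2-/- range. A log2 fold change of 0.52 was fitted, with a standard error of 0.26 (edgeR, adjusted p = 0.148), and 0.18 without WT replicates 3 and 5 (edgeR, adjusted p = 0.604). Its exons overlap those of Gm6225, annotated on the opposite strand.

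Fhl5 (ENSMUSG00000028259, chromosome 4 from 25199908 to 25242876, minus strand), the coactivator of CREM, was at 22.9, 3.94, 0.341, 0.175 and 0.0314 CPM in WT replicates 1 to 5, the last being a single read. In Rfx2-/- mice it ran from 0.324 to 28.0 CPM with a median of 3.54, an 86.5-fold range. The highest values were in WT replicate 1 and Rfx2-/- replicate 7, the mice with the highest round spermatid sums of their groups, and the genotypes overlapped throughout. For Fhl5 the log2 fold change of 0.48 had a standard error of 1.43 (edgeR, adjusted p = 0.809), changed sign without Rfx2-/- replicate 7 (-0.64) was 2.76 without WT replicate 1 and was -0.24 without WT replicates 3 and 5 (edgeR, adjusted p = 0.944), so the data give no direction. With the mean log2 CPM of the round spermatid markers as a covariate it was -0.79 with a standard error of 0.17 (edgeR, adjusted p = 0.0101). Those markers all had positive fitted values, so the covariate carries part of any genotype difference shared with them.

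Sox30 (ENSMUSG00000040489, chromosome 11 from 45980310 to 46017994, plus strand), an HMG-box factor needed for round spermatid genes, was at 91.3, 67.2, 44.2, 70.4 and 43.5 CPM in WT replicates 1 to 5 and at 82.4 to 113 CPM in Rfx2-/- mice, with a median of 95.2. Every Rfx2-/- mouse was above WT replicates 2 to 5, and WT replicate 1 lay among the Rfx2-/- mice. Its log2 fold change was 0.60 with a standard error of 0.18 (edgeR, adjusted p = 0.0504). DESeq2 called it at an adjusted p of 0.00915, and in edgeR without WT replicates 3 and 5 it was 0.34 with an adjusted p of 0.110.

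Taf7l, Tbpl1 and Gtf2a1l are the germ cell relatives of general transcription factors. Taf7l (ENSMUSG00000009596, chromosome X from 134460118 to 134476490, minus strand), related to the TFIID subunit TAF7, was at 85.3, 112, 187, 137 and 199 CPM in WT replicates 1 to 5 and at 94.3 to 126 CPM in Rfx2-/- mice, with a median of 99.7. It was the only one of the 9 genes with its highest WT levels in replicates 3 and 5, and the Rfx2-/- mice lay within the WT range. For Taf7l the log2 fold change was -0.44 with a standard error of 0.20 (edgeR, adjusted p = 0.117), and -0.06 without WT replicates 3 and 5 (edgeR, adjusted p = 0.859).

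Tbpl1 (ENSMUSG00000071359, chromosome 10 from 22703879 to 22731938, minus strand), related to the TATA-binding protein, was at 267, 237, 118, 239.8 and 104 CPM in WT replicates 1 to 5 and at 286 to 388 CPM in Rfx2-/- mice, with a median of 328. All 6 Rfx2-/- mice were above all 5 WT mice, which was seen for 1 of the 9 regulators higher and for none lower, against 6.5% of all tested genes higher and 5.2% lower. The means were 193 ± 76.0 CPM (SD, n = 5) and 335 ± 45.0 CPM (SD, n = 6), a log2 fold change of 0.79 with a standard error of 0.25 (edgeR, adjusted p = 0.0509). DESeq2 called it at an adjusted p of 0.00714, and edgeR without WT replicates 3 and 5 gave 0.44 with an adjusted p of 0.0339. Exons of Slc2a12 overlap those of Tbpl1 on the opposite strand.

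Gtf2a1l (ENSMUSG00000024154, chromosome 17 from 88668660 to 88715152, plus strand), related to the large subunit of TFIIA, was at 217, 164, 59.7, 148 and 52.3 CPM in WT replicates 1 to 5 and at 58.5 to 97.3 CPM in Rfx2-/- mice, with a median of 77.7. WT replicates 1, 2 and 4 were above every Rfx2-/- mouse, WT replicate 5 was below every Rfx2-/- mouse, and WT replicate 3 was below 5 of the 6. The log2 fold change over all mice was -0.72 with a standard error of 0.34 (edgeR, adjusted p = 0.132). Without WT replicates 3 and 5 it was -1.18 with a standard error of 0.18 (edgeR, adjusted p = 0.00335), a fit in which 2.72% of all tested genes were called lower and 1.06% higher. Both mice held the lowest WT levels of Gtf2a1l and were left out after the data had been seen. Their removal was thus bound to move the value down, and the call adds no separate support. Gtf2a1l lies on the same chromosome as Rfx2, 31.8 Mb away.

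The same comparison was made with a marker score as a covariate in edgeR. With the mean log2 CPM of the 8 round spermatid markers, Gtf2a1l was at -1.05 with a standard error of 0.21 (adjusted p = 0.00762 in edgeR, with 3.96% of all tested genes called lower and 1.24% higher). With the 7 pachytene markers it was at -1.53 with a standard error of 0.08 (adjusted p = 2.03e-07 in edgeR, with 4.75% called lower and 0.896% higher), and no other of the 9 was called in either fit. Under the pachytene score the values of Brdt, Tcfl5 and Crem moved to -0.015, -0.093 and -0.10, that of Taf7l to 0.12 and that of Sox30 to 0.16. Tbpl1 stood at 0.20 with a standard error of 0.05 (adjusted p = 0.0282 in edgeR). The round spermatid markers and the pachytene markers themselves all had fitted values above 0. Each score thus carries part of any genotype difference shared with its markers.

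**Figure D3:**
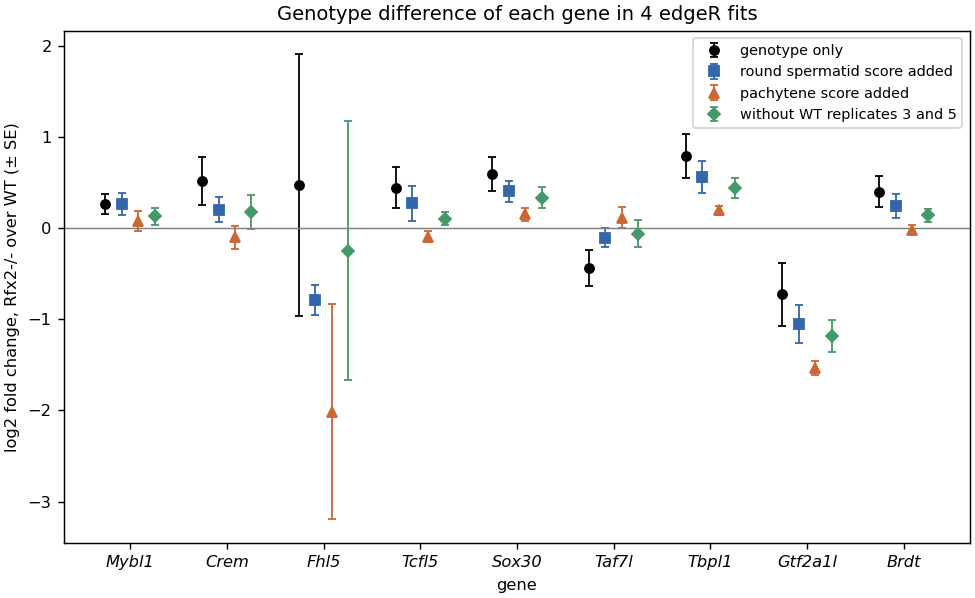
Log2 fold change, Rfx2-/- over WT, with standard error bars for the 9 genes in 4 edgeR fits, as named in the legend. Gtf2a1l lies between -1.53 and -0.72 in all 4, while Crem, Tcfl5, Taf7l, Brdt and Fhl5 change sign in at least 1.

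The deviations of log2 CPM from the genotype means were compared between genes over the 11 mice, which share library and depth across genes. Crem, Tcfl5, Sox30, Tbpl1 and Brdt went together, with Pearson's r of at least 0.90 for each pair. Gtf2a1l went with the same genes, at r = 0.99 with Tbpl1 and 0.97 with Crem, although its fitted genotype difference had the opposite sign. Taf7l went against them, at r = -0.95 with Gtf2a1l and -0.91 with Crem. Mybl1 and Fhl5 stood apart from each other, at r = -0.01. WT replicates 3 and 5 held the lowest WT levels of Crem, Tcfl5, Sox30, Tbpl1, Brdt and Gtf2a1l. For Tcfl5 they stood at 7.72 and 7.66 in log2 CPM, against 8.71 to 8.84 in the other WT mice. The Rfx2-/- mice spanned 8.76 to 9.05 for Tcfl5. The r values among these genes thus rest in part on WT replicates 3 and 5, and are not given without them.

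Since Gtf2a1l and Tbpl1 varied together, their ratio within a mouse was taken, a comparison chosen after the values had been seen. Tbpl1 was 1.23, 1.44, 1.98, 1.62 and 1.98 times Gtf2a1l in CPM in WT replicates 1 to 5 and 3.98 to 4.88 times in Rfx2-/- mice, with a median of 4.21. The WT mice with the lowest pachytene sums, replicates 3 and 5, had the highest of the WT ratios, below those of all Rfx2-/- mice. Ratios of all other tested genes to Tbpl1 did not overlap and were lower in Rfx2-/- mice for 37.2% of genes and higher for 0.279%, so such a separation was common among ratios to Tbpl1. Against Brdt, Gtf2a1l was at 0.599, 0.479, 0.280, 0.401 and 0.259 in WT replicates 1 to 5 and at 0.166 to 0.222 in Rfx2-/- mice, and such a lower ratio without overlap was found for 10.1% of tested genes and a higher one for 1.3%. Of the 36 pairs among the 9 regulators, also taken after the values had been seen, 7 had ratios that did not overlap between genotypes. Gtf2a1l was in 8 of the 36 pairs, and 5 of these 8 did not overlap, with Crem, Tcfl5, Sox30, Tbpl1 or Brdt as the partner. The share among pairs of all tested genes was not computed. Crem was 0.746 to 1.20 times Gtf2a1l in WT and 1.96 to 2.30 times in Rfx2-/- mice, and Sox30 was 0.409 to 0.832 times Gtf2a1l in WT and 1.11 to 1.44 times in Rfx2-/- mice. A ratio to Gtf2a1l that was higher in Rfx2-/- mice without overlap was found for 12.3% of all tested genes, and a lower one for 0.921%.

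**Figure D4:**
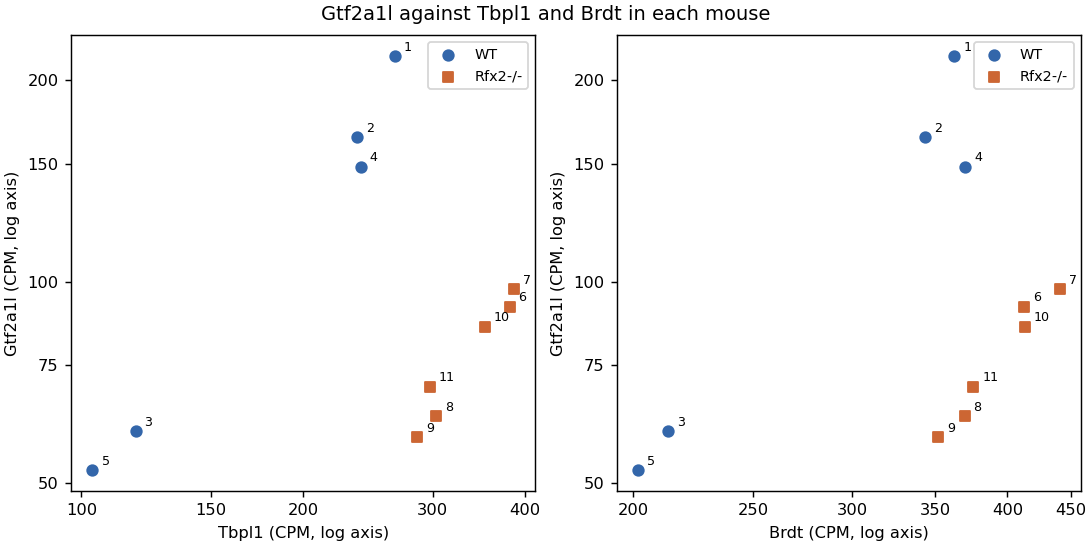
CPM of Gtf2a1l against CPM of Tbpl1 (left) and of Brdt (right) on log axes, 1 point per mouse with its replicate number, circles for WT (n = 5) and squares for Rfx2-/- (n = 6). Gtf2a1l stays at or below 97.3 CPM in the Rfx2-/- mice although Tbpl1 is at 286 to 388 CPM there, and Tbpl1 is 3.98 to 4.88 times Gtf2a1l in them against 1.23 to 1.98 times in WT.

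Regulators with a widely expressed counterpart were also set against it within the mouse, which does not depend on library scaling, and 6 such ratios were tested by two-sided exact permutation tests over the 462 splits of the mice, with no adjustment. Taf7l was 1.52 to 2.56 times Taf7 in WT and 1.30 to 1.51 times in Rfx2-/- mice, without overlap, a log2 difference of -0.45 (exact permutation p = 0.00216, the smallest these splits allow). The ratio to Taf7 was lower without overlap for 8.52% of tested genes and higher for 0.337%. Tbpl1 was 0.955 to 1.28 times Tbp in WT and 1.45 to 1.65 times in Rfx2-/- mice, also without overlap, a log2 difference of 0.43 (exact permutation p = 0.00216), and 1.61% of tested genes had a higher ratio to Tbp without overlap and 9.21% a lower one. As both ratios were fully separated, leaving out any 1 mouse was bound to keep the sign and an exact permutation p under 0.05, and adds no support. Without WT replicates 3 and 5, the WT range of the Taf7l ratio was 1.52 to 1.66 and the log2 difference was -0.18 (exact permutation p = 0.0238, where 84 splits allow no p below 0.0119). The log2 difference of the Tbpl1 ratio was then 0.30 (exact permutation p = 0.0119). Neither ratio overlapped, which the full separation over all mice had fixed. The ratios overlapped for Gtf2a1l to Gtf2a1 (-0.68, exact permutation p = 0.119), Crem to Creb1 (0.64, exact permutation p = 0.136) and Mybl1 to Mybl2 (0.43, exact permutation p = 0.0952). The ratio of Fhl5 to Fhl1 differed by 1.91 (exact permutation p = 0.303), and by 1.02 to 3.12 with any 1 mouse left out, the lowest and highest value. Without WT replicates 3 and 5, the ratio of Gtf2a1l to Gtf2a1 was 1.76 to 3.22 in WT and did not overlap that of the Rfx2-/- mice, with a median of 1.03 there, a log2 difference of -1.28 (exact permutation p = 0.0119). The differences for Mybl1, Crem and Fhl5 were then 0.21, 0.085 and 0.24 (exact permutation p = 0.464, 0.774 and 0.893). For Gtf2a1l to Gtf2a1 the mice left out held the lowest WT ratios, so their removal itself widened the difference.

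Levels were compared between genes as RPKM, CPM per kilobase of merged protein-coding exons. In WT, mean RPKM fell in the order Tcfl5 (157), Gtf2a1l (79.2), Taf7l (71.9), Tbpl1 (63.7), Brdt (58.9), Mybl1 (28.3), Crem (22.5), Sox30 (21.1) and Fhl5 (4.67). The ranges over the WT mice overlapped for each pair of neighbours in this order except Brdt and Mybl1. In Rfx2-/- testis the order was Tcfl5 (214), Tbpl1 (111), Brdt (77.9), Taf7l (53.0), Gtf2a1l (47.9), Mybl1 (34.1), Crem (32.2), Sox30 (32.0) and Fhl5 (6.48). Tcfl5, Tbpl1, Brdt and Taf7l were each separated from the next of the 4 over all Rfx2-/- mice, while Taf7l overlapped Gtf2a1l, Gtf2a1l overlapped Mybl1, and Mybl1, Crem and Sox30 overlapped each other, all above Fhl5. By mouse, Gtf2a1l held the second place in WT replicates 1, 2 and 4, the fifth in WT replicates 3 and 5, the fourth in Rfx2-/- replicates 6, 7 and 10 and the fifth in Rfx2-/- replicates 8, 9 and 11.

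The wider machinery around these regulators showed few differences at the called threshold. Of 15 counterparts and relatives of the 9 genes, 14 were tested and edgeR called none, with 1 lower and 5 higher at an unadjusted p under 0.05 (23.7% and 18.1% of all tested genes), and DESeq2 called 1 higher (7.28% of all tested genes) and voom none. The lowest p in that list was that of Brd3, a bromodomain relative of BRDT, at 0.36 (edgeR, adjusted p = 0.0387). All 14 listed genes for other TFIID subunits and their variants were tested and none was called by edgeR or voom, while 3 were higher in DESeq2 (7.28% of all tested genes). At an unadjusted p under 0.05 in edgeR, 1 was lower and 6 were higher (23.7% and 18.1% of all tested genes). Taf2, which contacts the initiator at the start site, had the lowest p of them, at 0.21 (edgeR, adjusted p = 0.0424). The median log2 fold change was 0.10 for the counterparts and 0.09 for the subunits, against -0.05 over all tested genes, and without WT replicates 3 and 5 it was 0.11 and 0.10. For the counterparts it was 0.055 without WT replicate 1 or without WT replicate 2, and 0.066 without Rfx2-/- replicate 8.

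Other transcription regulators of male germ cells, in a list that also holds the kinesin gene Kif17, were likewise not called. Of 20 tested, edgeR and voom called none and DESeq2 called 1 lower and 1 higher (5.79% and 7.28% of all tested genes), and at an unadjusted p under 0.05 edgeR had 4 lower and 4 higher (23.7% and 18.1% of all tested genes). Their median log2 fold change was 0.47, and it was 0.14 without Rfx2-/- replicate 7 and 0.12 without WT replicates 3 and 5. Rara, the retinoic acid receptor of Sertoli cells and early germ cells, had the lowest p, at 47.7 ± 6.19 CPM (SD, n = 5) in WT and 36.0 ± 2.81 CPM (SD, n = 6) in Rfx2-/- testis (-0.40 on the log2 scale, edgeR, adjusted p = 0.0218).

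Genes that CREM regulates were examined next. Of 12 haploid genes of this kind, all 12 were tested, none was called by edgeR, DESeq2 or voom, and 1 was higher at an unadjusted p under 0.05 in edgeR (18.1% of all tested genes). Their median log2 fold change was 0.26 over all mice but turned to -0.36 without Rfx2-/- replicate 7 and to -0.19 without WT replicates 3 and 5. It was 2.09 without WT replicate 1, 0.08 without WT replicate 3, 0.041 without WT replicate 4 and 0.073 without WT replicate 5. Without Rfx2-/- replicates 6, 8 and 9 in turn it was 0.17, 0.44 and 0.45, so no direction is given for these genes. The 12 include Ldhc and Pgk2 of the pachytene markers and all elongating spermatid markers but Prm3. They therefore do not separate CREM from germ cell stage. The gene at an unadjusted p under 0.05 was Acr, the acrosomal protease acrosin, at 90.4 ± 49.5 CPM (SD, n = 5) in WT and 172 ± 39.3 CPM (SD, n = 6) in Rfx2-/- testis (0.93, edgeR, adjusted p = 0.0796). A longer list holds 232 genes that the study's supplement marks as bound by CREM and lowered in Crem knockout testis, of which 222 were tested. In edgeR 1 fell and 2 rose, against 1.94% of all tested genes called lower and 0.73% called higher. DESeq2 called 2 lower and 11 higher (5.79% and 7.28% of all tested genes), and voom 3 lower and 3 higher (4.33% and 2.33%). The median log2 fold change was 0.24, and it was 0.48 without WT replicate 1, 0.013 without Rfx2-/- replicate 7 and 0.060 without WT replicates 3 and 5. Crip2, encoding a LIM-domain protein, rose from 23.7 ± 5.86 to 49.0 ± 4.71 CPM (SD, n = 5 and 6), by 1.05 on the log2 scale (edgeR, adjusted p = 0.00135). Pxk, encoding a protein with a PX domain, rose by 0.44 (edgeR, adjusted p = 0.00481), and Scamp1, encoding a secretory carrier membrane protein, fell by 0.31 (edgeR, adjusted p = 0.00698). With any 1 mouse left out Crip2 was called each time, but Pxk missed the threshold in 9 of the 11 fits, being called only without WT replicate 1 or 4, and Scamp1 in 10 of the 11, being called only without WT replicate 4. With the round spermatid score as a covariate 8 of the 222 were called lower and 3 higher. Of the 12 haploid genes, 4 were called lower and 0 higher in that fit. It called 3.96% of all tested genes lower and 1.24% higher. That score carries part of any genotype difference shared with its markers, which all had positive fitted values.

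The genes whose deviations over the 11 mice were most like those of Crem were Ccdc173 (r = 0.997), Cdkal1 (r = 0.996) and Zscan21 (r = 0.995). Ccdc173 had a log2 fold change of -0.03 and the other two had 0.69 and 0.68, and none was called by edgeR (adjusted p = 0.945, 0.0486 and 0.0614). For Gtf2a1l, looked up after its values were seen, the most alike were Pfn4, Rabepk and Ica1l, all with r of at least 0.998. Their log2 fold changes were 0.61, 0.46 and 0.73, with none called (edgeR, adjusted p = 0.108, 0.183 and 0.0828), against -0.72 for Gtf2a1l. WT replicates 3 and 5 held the lowest WT levels of Crem and Gtf2a1l, and the r values are not given without these mice.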

How the data were processed

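RNA of whole testis from 11 mice was used. According to the authors, TruSeq libraries were mapped to GRCm38, reads mapping to several places were discarded, and reads on merged exons of protein-coding isoforms were counted. The labels name CASAVA 1.8.2, STAR 2.4 and featureCounts 1.4.6, while the methods name other aligners and read lengths in places. The deposited table holds raw counts, without normalization. Whether counting used strand is not given in the sources used here. Labels name separate mice and give no litters, while the authors report taking littermates of the same age where they could.

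Counts were analysed with edgeR 4.0.16 in R 4.3.3 (filterByExpr, TMM, quasi-likelihood test, no covariate), after tests on simulated data. Scores and correlations used log2 CPM with a prior count of 2. Alternatives were DESeq2 size factors, total counts, DESeq2 1.42.0, limma 3.58.1 voom with sample weights, other filters, an adjusted p of 0.05, a round spermatid score and each mouse left out. Members and lists were chosen with earlier results of these data known. The pachytene score, leaving out WT replicates 3 and 5, ratios among members and the inverted repeat motif were chosen after seeing the data. Named were all members, Rfx2, the counterparts, called genes of each list or otherwise the gene with the lowest p, and the 3 genes most like Crem. A count of 3 equals 0.0852 to 0.139 CPM by mouse, covering counting error only. Lengths and positions came from GENCODE M21, and symbols matched 22293 of 23074 IDs. The test of 1 further ratio, planned with the others, is not reported here. Tables and figures were made with Python 3.11.15, pandas 2.3.3 and matplotlib 3.10.9.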

Additional observations from a re-analysis of the deposited data

Results flagged for a closer look

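In each genotype 1 mouse stood far from the others in the CPM of Fhl5. WT replicate 1, at 22.9 CPM, lay above the next WT mouse by a gap of 0.829 of the whole WT range. Rfx2-/- replicate 7, at 28.0 CPM, lay above the next Rfx2-/- mouse by a gap of 0.663 of the whole range. On the log2 scale neither gap passed the limit, and chance passes it in about 1 in 20 groups. The search covered each of the 9 regulators in each genotype, so some gaps past the limit can arise by chance alone. Both mice also had the highest round spermatid sums of their genotypes, at 279 and 487 CPM, and the part of this in the Fhl5 values was not tested.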

How the results depend on the processing

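No paired analysis was possible because the replicate numbers of the genotypes, 1 to 5 and 6 to 11, share none. Of the 9 regulators, 1 was called lower (Gtf2a1l) with the round spermatid score, with the pachytene score and without WT replicates 3 and 5 together, and 2 were called higher (Sox30, Tbpl1) in DESeq2. Leaving out 1 mouse gave 0 calls among them each time. With 1 mouse left out, the log2 fold change of Gtf2a1l lay between -0.91 and -0.45, that of Fhl5 between -0.64 and 2.76 and that of Tbpl1 between 0.65 and 0.94. Signs turned with the pachytene score for Crem (-0.10), Fhl5 (-2.01), Tcfl5 (-0.093), Taf7l (0.12) and Brdt (-0.015), and for Fhl5 also with the round spermatid score (-0.79), without WT replicates 3 and 5 (-0.24) and without Rfx2-/- replicate 7 (-0.64). Genes of the other lists called lower, 1 in the fit as reported, numbered 0 with DESeq2 size factors or without WT replicates 3 and 5, 2 with total counts or the pachytene score, 3 in DESeq2 and in voom, 11 with the round spermatid score, 5 at an adjusted p of 0.05, and 0 to 1 with 1 mouse left out. Those called higher, 2 as reported, numbered 1 with total counts, the pachytene score or without WT replicates 3 and 5. They numbered 16 in DESeq2, 15 at an adjusted p of 0.05, and 1 to 2 with 1 mouse left out. These lists held 277 tested genes in the fit as reported. Of all tested genes, DESeq2 called 5.79% lower and 7.28% higher, voom 4.33% lower and the round spermatid score fit 3.96% lower. At an adjusted p of 0.05 in edgeR, 1382 of all 15745 tested genes were lower and 968 higher. With 1 mouse left out, the log2 ratio differences ranged from 0.34 to 0.66 for Mybl1 to Mybl2 (exact permutation p = 0.00476 without WT replicate 4), 0.41 to 0.86 for Crem to Creb1 (p = 0.0476 in the exact test without WT replicate 1) and -0.93 to -0.43 for Gtf2a1l to Gtf2a1 (p = 0.0476 in the exact test without WT replicate 5, and -1.28 without WT replicates 3 and 5 together). Total counts moved the median of all genes from -0.05 to -0.22, and no sign among the 9 genes turned with that scaling. The cause of these moves was not tested. With 5 and 6 mice and uneven levels of germ cell stage markers between them, a missed threshold does not show equal levels.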
